A study of Bos indicus with 11 samples.

Results

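Keratins, claudins and the genes of epithelial junctions were examined in endometrial biopsies of Nelore cows. The genes were taken by symbol from the deposited table. They comprise every entry whose symbol alone is that of a keratin (KRT and a number), claudin (CLDN), desmoglein (DSG), desmocollin (DSC), plakophilin (PKP) and zonula occludens gene (TJP), together with DSP, JUP, CDH1, EPCAM, OCLN, ELF3 and GRHL2. Of 24616 genes in the table, 87 matched, and 45 of these reached a mean of 5 normalized counts across the 11 columns and are reported. The remaining 42 lay below that mean, and 19 of them had no read in any cow. Another 4 genes sought, ESRP1, KRT10, KRT23 and KRT28, have no entry of their own, because the table joins each symbol with a LOC name. They are not among the 87, and ESRP1 and KRT10 are given apart.

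The cows were healthy and multiparous, and all were synchronized and artificially inseminated (AI) at estrus. A biopsy was taken 6 days later from the uterine horn opposite the ovary with the corpus luteum. Pregnancy diagnosis on day 30 then sorted the inseminated cows into pregnant (P) and non-pregnant (NP), so that both groups had received the same treatment. From these the study selected 6 cows of each group afterwards. The criteria were plasma progesterone within a narrow interval on day 6 and ovulation seen by ultrasound soon after AI. The study left out 1 NP sample whose reads did not align correctly, so that 6 P and 5 NP cows remained. The sampled horn is the one that the embryo does not enter first, and 1 biopsy stands for 1 cow. A biopsy holds surface and glandular epithelium, stroma, vessels, leukocytes and, where it reaches deep, smooth muscle. Fewer epithelial cells in a biopsy and less RNA per epithelial cell therefore cannot be told apart.

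Keratins are intermediate filament proteins that pair as a type I and a type II chain, with KRT8 and KRT18 the usual pair of simple epithelia such as the endometrial lining and glands. Desmosomes anchor these filaments at the cell border. Their cadherins, the desmogleins and desmocollins, bind the neighboring cell, and their plaque proteins (desmoplakin, plakoglobin and the plakophilins) bind the filaments. Nearer the lumen, claudins and occludin form the strands of the tight junction, which seals the space between cells, and the zonula occludens proteins tether those strands to the actin cytoskeleton. The endometrial epithelium secretes the histotroph that feeds the embryo before implantation, and its junctions separate the lumen from the stroma.

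The reads on genes numbered 9290949 to 13569085 per cow. Cow P617 is labelled pregnant in the sample records, whereas a supplementary table of the study lists it as non-pregnant. The group sizes in the study's main text are those of the sample records, and P617 was kept in the P group here. Its biopsy also stood apart in content. Smooth muscle markers, of which 14 of 17 were measured (ACTA2, ACTG2 and MYLK had no entry), summed to 81801 to 654776 normalized counts in P and 44975 to 265255 in NP cows. Their mean log2(normalized count + 1) was 13.26 in P617, 13.01 in cow P1541 and 12.64 in cow NP638, against 10.52 to 12.09 in the other 8 cows. The same mean over 28 epithelial genes that the symbol search did not use, among them SOX17, PAX8 and RAB25, was lowest in P617 (5.69) and next lowest in P1541, against 8.01 to 9.35 in the other 9 cows. Epithelial genes were thus present in each biopsy, and the results below are given with and without these cows.

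None of the 45 genes differed between P and NP cows after adjustment. With limma, which fits each gene on the log2(normalized count + 1) scale and adjusts p-values over 15081 genes, 0 of 45 had an adjusted p-value under 0.1, where 0.0% of the genes tested did. The smallest adjusted p-value among them was 0.496, for KRT7. DESeq2 on the recovered reads also called 0 of the 45, although it called 1.33% of the genes tested, and edgeR called 0 with a background of 0.0%. At an unadjusted p-value under 0.05, 3 of the 45 (KRT7, CLDN5 and TJP1) passed in limma, a smaller share than the 7.84% of the genes tested that did. CLDN5 and TJP1 were higher in NP cows, a direction and threshold met by 5.49% of the genes tested, and KRT7 was higher in P cows, as were 2.35%. DESeq2 and edgeR named the same 3 genes at that threshold, where 9.75% and 7.74% of the genes tested passed. In 0 of the 45 did every cow of one group lie above every cow of the other, which held for 1.09% of the genes tested, 0.239% with P above NP and 0.855% with NP above P.

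**Figure D1:**
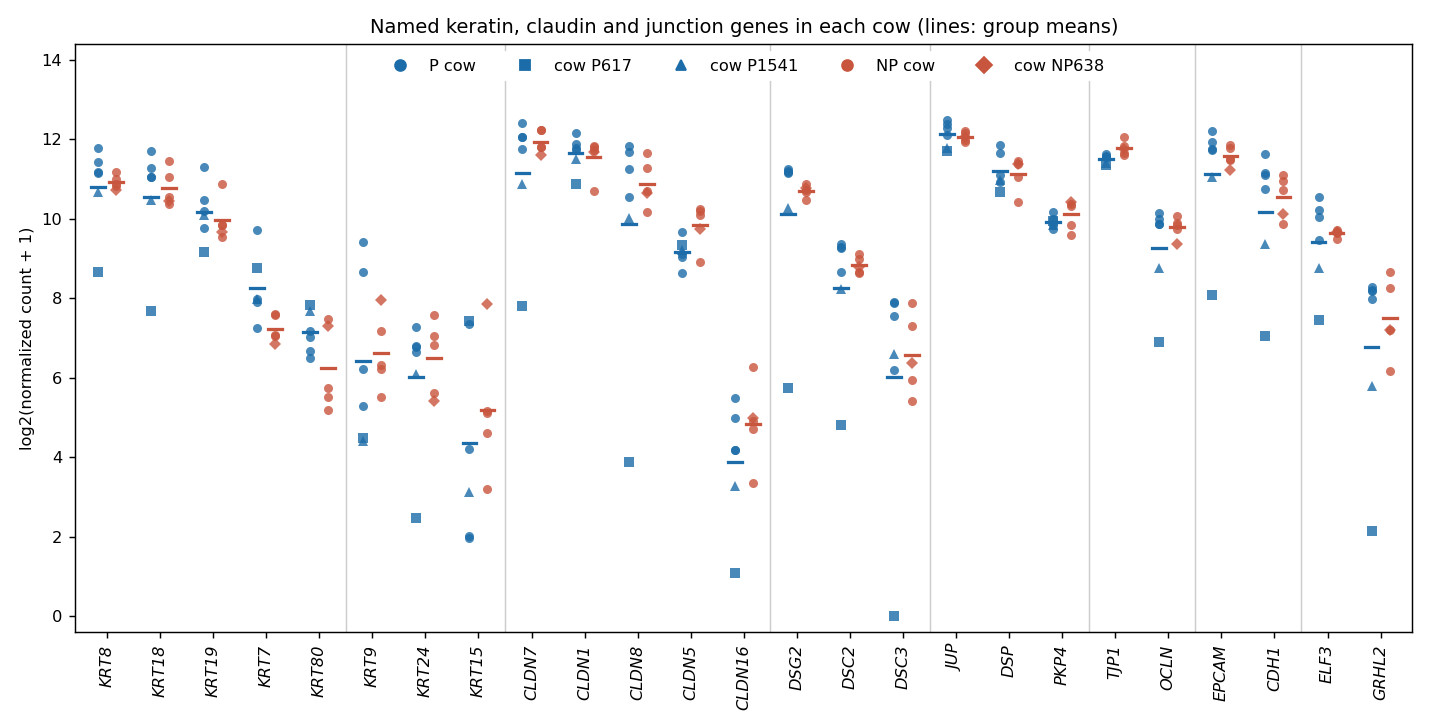
Levels of the 25 named genes in each cow as log2(normalized count + 1), with P cows in blue, NP cows in red and a line at each group's mean. Cow P617 (square) is the lowest P cow in most columns and lies far below the rest for CLDN8, DSG2, DSC3 and GRHL2, while KRT7, KRT80 and KRT15 do not share that pattern.

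The simple keratins did not share 1 pattern across cows. KRT8, the type II partner of simple epithelia, was 1634, 3497, 2305, 2739, 406 and 2268 normalized counts in P cows P1541, P1631, P1753, P2396, P617 and P904. It was 2061, 1871, 2309.8, 1686 and 1819 in NP cows NP238, NP2541, NP2810, NP638 and NP856. The NP cows lay within the span of the P cows, whose spread was set by P1631 at the top and P617 at the bottom. The group means were 2141 ± 1049.6 (SD, n = 6) in P and 1949 ± 242 (SD, n = 5) in NP cows, with a log2 fold change (NP over P) of 0.11 and a standard error of 0.45. KRT18, its type I partner, followed with 202 in P617 against 1323 to 3313 in the other 10 cows, and a log2 fold change of 0.24 (SE 0.61). The ratio of KRT8 to KRT18 normalized counts, read only across cows because gene length enters it, was 2.01 in P617 and 0.825 to 1.56 in the others. KRT19, a type I keratin of simple and glandular epithelia, was 569 in P617 and reached its highest levels in P1631 (2539) and NP2810 (1891).

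KRT7, a type II keratin of simple and ductal epithelia, had the largest log2 fold change of the 45 in either direction, -1.03 with a standard error of 0.37 (limma, unadjusted p = 0.0175, adjusted p = 0.496). The P cows held 254 (P1541), 839 (P1631), 251 (P1753), 152 (P2396), 433 (P617) and 237 (P904) normalized counts. The NP cows held 134 (NP238), 194 (NP2541), 191 (NP2810), 115 (NP638) and 131 (NP856). Every P cow but P2396 lay above every NP cow, so that the groups overlapped through that cow alone. The means were 361 ± 252 (SD, n = 6) in P and 153 ± 36.9 (SD, n = 5) in NP cows. P617, the lowest cow for KRT8 and KRT18, was the second highest for KRT7, and P1541 was the next, whereas NP638 was the lowest. Without P617 its log2 fold change was -0.93 and without both P617 and P1541 it was -0.98, with unadjusted limma p-values of 0.0333 and 0.0421. MSLN, which encodes mesothelin of the mesothelial lining and of some epithelia, was highest in the same cows as KRT7, with 2405 normalized counts in P1631 and 1462 in P617 against at most 783 elsewhere. Its log2 fold change was -1.32 (limma, unadjusted p = 0.0129, adjusted p = 0.459), where limma called 0.0% of the genes tested at an adjusted p-value under 0.1. The study, with its own DESeq2 fit, lists MSLN among its genes up-regulated in pregnant cows at that threshold. Of 6 mesothelial markers 4 were tested, summing to 1033 to 3179 normalized counts in P and 774 to 1187 in NP cows. CALB2 and BNC1 had reads but lay below the level filter, with means of 4.82 and 3.04. DESeq2 called 1 of the 4 at an adjusted p-value under 0.1, where it called 1.33% of the genes tested. Of the other mesothelial markers, UPK3B had a log2 fold change of -1.47 (SE 0.84) and LRRN4 one of -1.51 (SE 1.15), with unadjusted limma p-values of 0.108 and 0.217. LRRN4 was 101 in P1541 and at most 12.4 elsewhere. WT1 had a log2 fold change of 0.24 (SE 0.37) with an adjusted p = 0.896 in limma, and the part of mesothelium in the KRT7 values was not tested. KRT80, a type II keratin found in many epithelia, averaged 149 ± 55.6 (SD, n = 6) in P against 93.1 ± 67.5 (SD, n = 5) in NP cows, with a log2 fold change of -0.90 (SE 0.45, unadjusted p = 0.0691 in limma). Its NP cows split into NP2541 (176) and NP638 (156) on the one side and NP238 (52.6), NP2810 (44.9) and NP856 (35.5) on the other, while the P cows ran from 89.6 to 227.

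**Figure D2:**
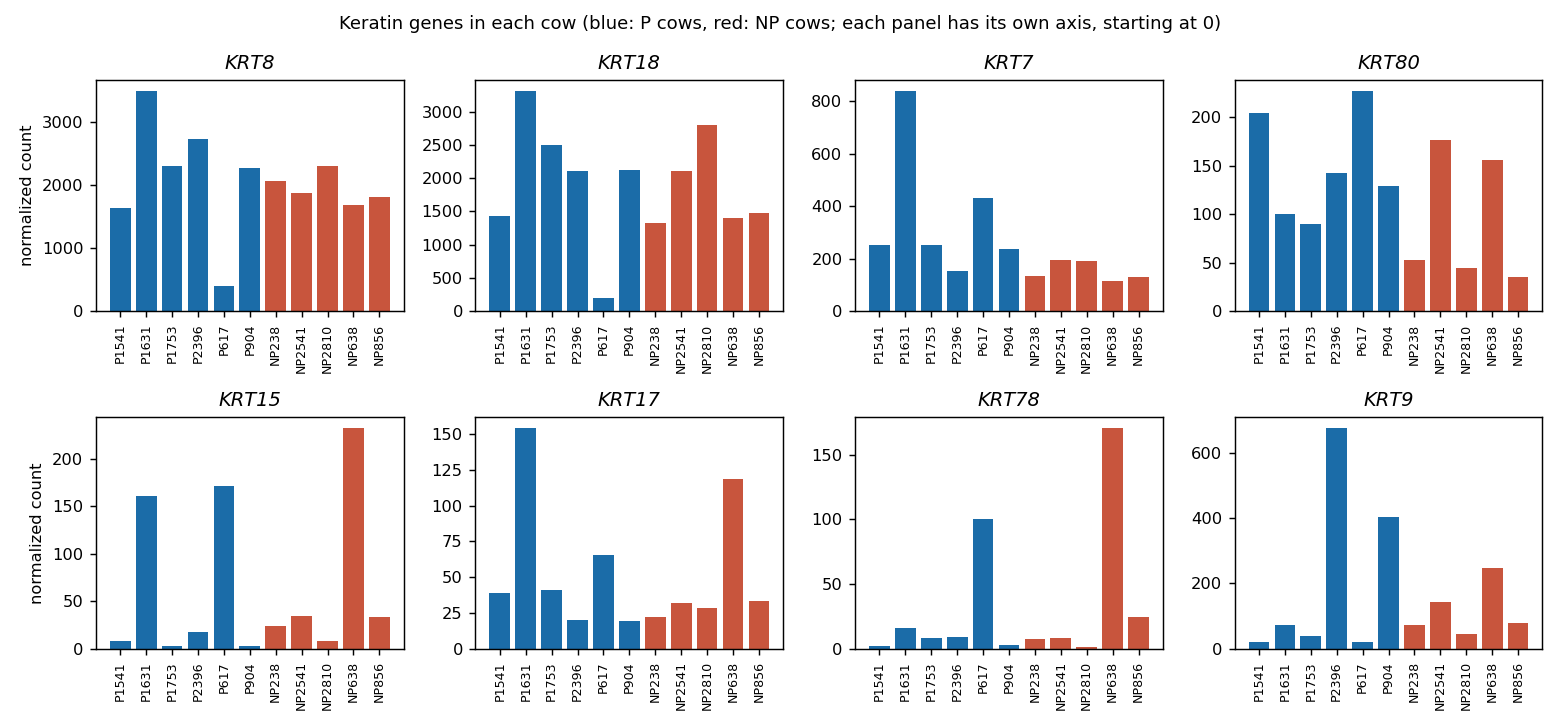
Normalized counts of 8 keratin genes in each cow (bars; blue for P, red for NP; each panel starts at 0 and has its own scale). KRT8 and KRT18 are lowest in P617, KRT7 is higher in 5 of the P cows than in every NP cow, and KRT15, KRT17, KRT78 and KRT9 are carried by a few cows of both groups.

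The keratins of basal, stratified and hair-type epithelia varied mostly from cow to cow within both groups, and 0 of the 10 reported had an unadjusted limma p-value under 0.05, where 7.84% of the genes tested did. KRT15, a basal keratin of stratified epithelia, was 161 in P1631, 172 in P617 and 232 in NP638, against 2.87 to 34.5 in the other 8 cows. High and low cows thus occurred in both groups, and its log2 fold change of 0.84 had a standard error of 1.18. KRT78 was 101 in P617 and 170.4 in NP638, with 1.02 to 24.7 elsewhere. KRT17, a keratin of basal and stressed epithelium, was 154 in P1631 and 119 in NP638, with 65.5 in P617 and 19.2 to 41.3 elsewhere. NP638 therefore had the highest or second highest level of all 3 genes, next to P1631 and P617 of the other group. The other keratins followed other cows. KRT9 had 677 in P2396, 404 in P904 and 248 in NP638, against 20.3 to 143 in the others. KRT24 was 4.52 in P617 and 41.6 to 191 in the other cows. KRT5 and KRT14, the basal pair of stratified epithelia, stayed at 2.01 to 46.5 and 2.04 to 29.3 across the cows. Of 10 markers of stratified squamous epithelium outside the keratins, SPRR1B had no entry, TP63, the defining basal factor, was at 0 in 10 of 11 cows, and IVL, S100A7, CALML5 and SPINK5 were at 0 in 7, 7, 9 and 2. TGM1, a transglutaminase of the cornified envelope, was read in every cow, from 6.78 in P617 to 321 in NP2810, as were TRIM29 and SFN with means of 20.4 and 6.15 normalized counts. CRNN was 116 in P1631 and at most 8.12 elsewhere. The 4 of these 10 markers that were tested summed to 18.1 to 290.1 normalized counts in P and 47.5 to 349.6 in NP cows, and the part of squamous epithelium in the keratin levels was not tested.

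Among the 13 claudins, CLDN5 was the one past an unadjusted limma p-value of 0.05, where 7.84% of the genes tested were. CLDN5 forms tight junctions mainly in endothelium. It was 595, 525, 551, 396, 652 and 805 normalized counts in P1541, P1631, P1753, P2396, P617 and P904. The NP cows had 479 (NP238), 1087 (NP2541), 1213 (NP2810), 850.2 (NP638) and 1166 (NP856). Every NP cow but NP238 lay above every P cow, and NP238 lay among the P cows. The means of 587 ± 136 (SD, n = 6) and 959 ± 302 (SD, n = 5) gave a log2 fold change of 0.66 with a standard error of 0.25 (limma, unadjusted p = 0.0208, adjusted p = 0.514). It was 0.70 without P617 and 0.72 without P617 and P1541. Endothelial markers had the same direction, with 10 of 10 listed markers measured and 9 of them higher in NP cows at an unadjusted limma p-value under 0.05, a direction and threshold met by 5.49% of the genes tested. They summed to 4602 to 15479.5 normalized counts in P and 9388 to 16888 in NP cows, and none was at 0 in any cow. CDH5, the cadherin of endothelial junctions, was 422 ± 159 (SD, n = 6) in P and 786 ± 144 (SD, n = 5) in NP cows, and TEK and TIE1 had log2 fold changes of 1.17 and 0.94. P617 was the lowest cow in 8 of the 10 endothelial markers, at a median of 37.7% of the other cows' level, but the second highest P cow for CLDN5. How far vessel content set the CLDN5 values was not tested.

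Several claudins of the epithelial strand had wide P groups. CLDN10 and CLDN22 had wide NP groups too, at 375 to 1789 and 148 to 1516 normalized counts. CLDN8 was 1044, 3628, 1504, 3304, 13.6 and 2440.1 in P1541, P1631, P1753, P2396, P617 and P904, and 1145, 2466, 3219, 1610.1 and 1651 in the NP cows. P617 had less than 1% of the median of the other 10 cows (0.663%), whereas those 10 cows interleaved. The log2 fold change of 1.02 (SE 1.22) became -0.19 without P617. CLDN7 was 224 in P617 and 1869 to 5470.3 in the others, and its log2 fold change of 0.77 (SE 0.70) became 0.10. CLDN10, CLDN16 and CLDN23 had 4.16 to 7.22% of the other cows' median in P617, CLDN3 was 195 there against 881 to 3010.4, and CLDN4 and CLDN22 had 31.2 and 24.6%. The log2 fold change of CLDN16, which ran from 1.13 in P617 to 76.1 in NP2541, was 0.98 with a standard error of 0.75. Other claudins did not share the low level of P617. CLDN1 was 1882 there, and NP2810 was lower at 1656, against 2901 to 4588 in the remaining cows. CLDN11, a strand protein of myelin and of Sertoli cells, was 363 in P617 and 3.03 to 89.3 in the other cows. CLDN12 ran from 168 to 268 over all 11 cows, with means of 226 ± 28.2 (SD, n = 6) in P and 219.7 ± 30.0 (SD, n = 5) in NP cows and a log2 fold change of -0.04 (SE 0.14).

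The desmosomal cadherins had the lowest median level in P617, relative to the other cows, of the 8 roles. DSG2, the desmoglein of simple epithelia, was 1232, 2298, 2279, 2354, 52.0 and 2444 in P1541, P1631, P1753, P2396, P617 and P904, and 1681, 1419, 1644, 1749 and 1877 in NP238, NP2541, NP2810, NP638 and NP856. The P cows fell into 4 cows above every NP cow and 2 cows, P617 and P1541, below every NP cow. Over the 11 cows the log2 fold change was 0.57 with a standard error of 0.87 (limma, unadjusted p = 0.523). Without P617 and P1541 it was -0.49 (unadjusted p = 0.000406, adjusted p = 0.139 in limma) and the groups no longer overlapped, a separation found in 3.66% of the genes tested on those cows. The P cows set aside there are the lowest ones for this gene, so its P level had to come out higher. Setting aside NP638 as well, the cow with the next most muscle, left the log2 fold change at -0.51 and the adjusted limma p-value at 0.221, and DSG2 again did not overlap (5.03% of the genes tested). DSC2, the desmocollin of simple epithelia, was 27.1 in P617 against 300.0 to 662, and DSC3, which prevails in basal layers of stratified epithelia, had no read in P617 against 41.8 to 241. DSC1 passed the level filter narrowly, with 0 to 24.7 in all cows.

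The plaque genes were steadier. JUP, which encodes plakoglobin of both desmosomes and adherens junctions, was 3365 in P617 and 3532 in P1541, next to 4441 to 5747 in the other P cows and 3914 to 4753 in the NP cows. Its group means were 4570.1 ± 969 (SD, n = 6) and 4303 ± 349.6 (SD, n = 5). DSP, the desmoplakin gene, ran from 1646 in P617 to 3707 in P2396, with the lowest value, 1361, in NP2810, and a log2 fold change of -0.06 (SE 0.25). PKP4, an armadillo protein of cell contacts in many tissues, was 982 in P617 and 769 to 1361 in the rest. The plakophilins of epithelial desmosomes did not share this. PKP3 was 6.78 in P617 and 106 in P1541, against 197 to 424 in the other 9 cows, and PKP2 was 72.3 in P617 against 237.7 to 364.

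Among the tight junction scaffold genes, TJP1 (zonula occludens 1) had one of the smallest spreads of the 45 and an unadjusted limma p-value of 0.0327 (adjusted p = 0.572). It was 2725, 3006, 3148, 3055, 2593 and 3026 in P1541, P1631, P1753, P2396, P617 and P904, and 4293, 3198, 3088, 3438 and 3670.5 in NP238, NP2541, NP2810, NP638 and NP856. P1753 lay above NP2810 and the groups otherwise did not overlap. The means were 2925 ± 216 (SD, n = 6) and 3537 ± 478 (SD, n = 5), a log2 fold change of 0.27 with a standard error of 0.11. Without P617 it was 0.23 and the unadjusted limma p-value was 0.0556. TJP1 is also made by endothelium, whose markers had the same direction, and their part in it was not tested. OCLN, the occludin gene, was 434 in P1541 and 117 in P617, against 659 to 1129 in the others, and TJP3, an epithelial scaffold, was 316 and 104 against 524 to 1388. The log2 fold change of OCLN was 0.53 (SE 0.51), and 0.06 without P617.

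The adhesion receptors and the regulators of the epithelial state did not separate the groups. EPCAM, a surface protein of nearly all simple epithelia, was 2110.0, 4719, 3439.7, 3904, 269 and 3409.6 in P1541, P1631, P1753, P2396, P617 and P904, and 2385 to 3719 in the NP cows. Its means were 2975 ± 1574 (SD, n = 6) and 3078 ± 543 (SD, n = 5). CDH1, the E-cadherin of adherens junctions, was 132 in P617, 662 in P1541, 1713 to 3153 in the other P cows and 926 to 2212 in the NP cows. GRHL2, a transcription factor that sustains CDH1 and claudin expression, was 3.39 in P617 and 54.2 in P1541, against 253 to 308 in the remaining P cows and 70.3 to 407 in the NP cows. ELF3, an ETS factor of simple epithelia, was 434, 1507, 1051, 1195, 173 and 711 in P1541, P1631, P1753, P2396, P617 and P904, and 808, 841, 794, 809.6 and 721 in the NP cows. The NP cows were nearly level for ELF3 (795 ± 44.8, SD, n = 5), whereas the P cows ranged over both sides of them (845 ± 499, SD, n = 6). The log2 fold changes were 0.45, 0.38, 0.74 and 0.22 for EPCAM, CDH1, GRHL2 and ELF3, each smaller than its standard error, and they became -0.16, -0.24, -0.19 and -0.18 without P617. The entry that joins ESRP1, a splicing regulator of epithelia, with LOC788414 was 56.5 in P617 and 516 to 1288 in the other cows. Likewise KRT10, joined with LOC100138974, was 124 in P617 and 249 to 447 elsewhere. Reads of the joined names cannot be told apart.

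The level in P617 ranged widely among the genes and their roles. P617 was the lowest of the 11 cows in 26 of the 45 genes (57.8%), against 27.1% of the genes tested, and it was tied at 0 in DSC1. Its level was under 10% of the median of the other 10 cows in 17 of the 45, against 6.64% of the genes tested, and under 25% in 25, against 12.5%. The median over the 45 was 21.4% of the other cows' level. By role it was 1.43% in 4 desmosomal cadherins, 7.49% in 2 adhesion receptors, 11.3% in 2 regulators, 24.6% in 13 claudins and 28.2% in 10 other keratins. It was 48.9% in 4 tight junction scaffold and strand genes, 56.2% in 5 simple keratins and 67.5% in 5 plaque genes. Within the simple keratins the range was from 9.59% in KRT18 to 225% in KRT7, and within the claudins from 0.663% in CLDN8 to 1173% in CLDN11. Within the other keratins it was from 0.0% in KRT222 to 1265% in KRT78. In P617, 11 of the 45 were above the other cows' median (24.4%, against 48.8% of the genes tested), and in 4 of them, KRT80, CLDN11 and CLDN15 included, it was the highest cow (8.89%, against 26.0%).

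**Figure D3:**
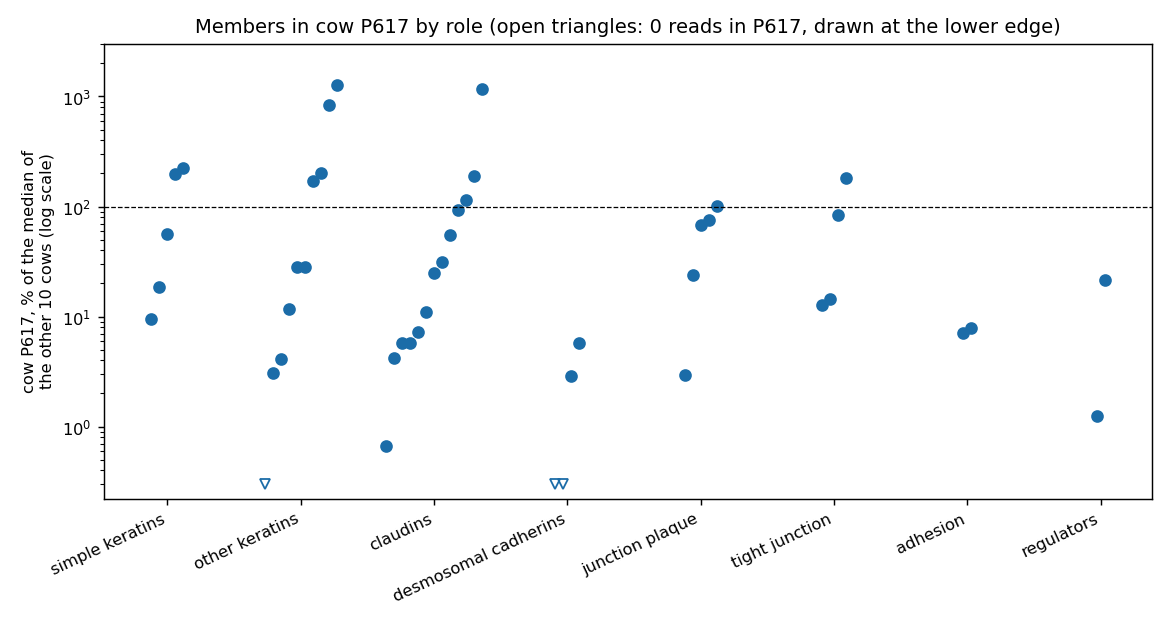
Level of each of the 45 genes in cow P617 as a percentage of the median of the other 10 cows (log scale, 1 point a gene), arranged by role, with the dashed line at equality. The desmosomal cadherins lie at 5.74% or less, whereas some plaque genes, simple keratins and tight junction genes reach up to the line or beyond it. Some claudins and other keratins lie furthest above it.

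The sign of the median of the 45 log2 fold changes turned when P617 was left out. Over the 11 cows 32 were positive (higher in NP cows) and 13 negative, with a median of 0.27, where the median of the genes tested was 0.0018 and 49.8% were negative. On the recovered reads of the same 11 cows the median was -0.015 with DESeq2 and with edgeR. Without P617, 31 of the 45 were negative and the median was -0.17, where 53.3% of the genes tested were negative. CLDN5 and KRT7 then had an unadjusted limma p-value under 0.05 (8.95% of the genes tested), and the smallest adjusted one was 0.433. Without P617 and P1541, 34 of the 45 were negative and the median was -0.31, where 53.7% of the genes tested were negative. An unadjusted limma p-value under 0.05 was then reached by 8 genes, where 11.1% of the genes tested did. CLDN5 was higher in NP cows, and DSG2, ELF3, JUP, KRT7, KRT8, PKP3 and TJP3 were higher in P cows, a direction met by 4.01% of the genes tested. These 2 cows had the lowest or nearly the lowest levels of many of the 45 genes, and leaving them out raises the P level by construction. Without P617, P1541 and NP638, 34 were negative with a median of -0.25, where 53.6% of the genes tested were negative, and 3 genes had an unadjusted limma p-value under 0.05 (10.2% of the genes tested). They were CLDN5, DSG2 and KRT8, with the last 2 higher in P cows, a direction met by 3.81%. KRT7, KRT80, CLDN5 and TJP1 kept the sign of their log2 fold change in each of these fits. So did other genes, among them CLDN1, CLDN16, KRT15, KRT19, DSP, JUP and PKP4.

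**Figure D4:**
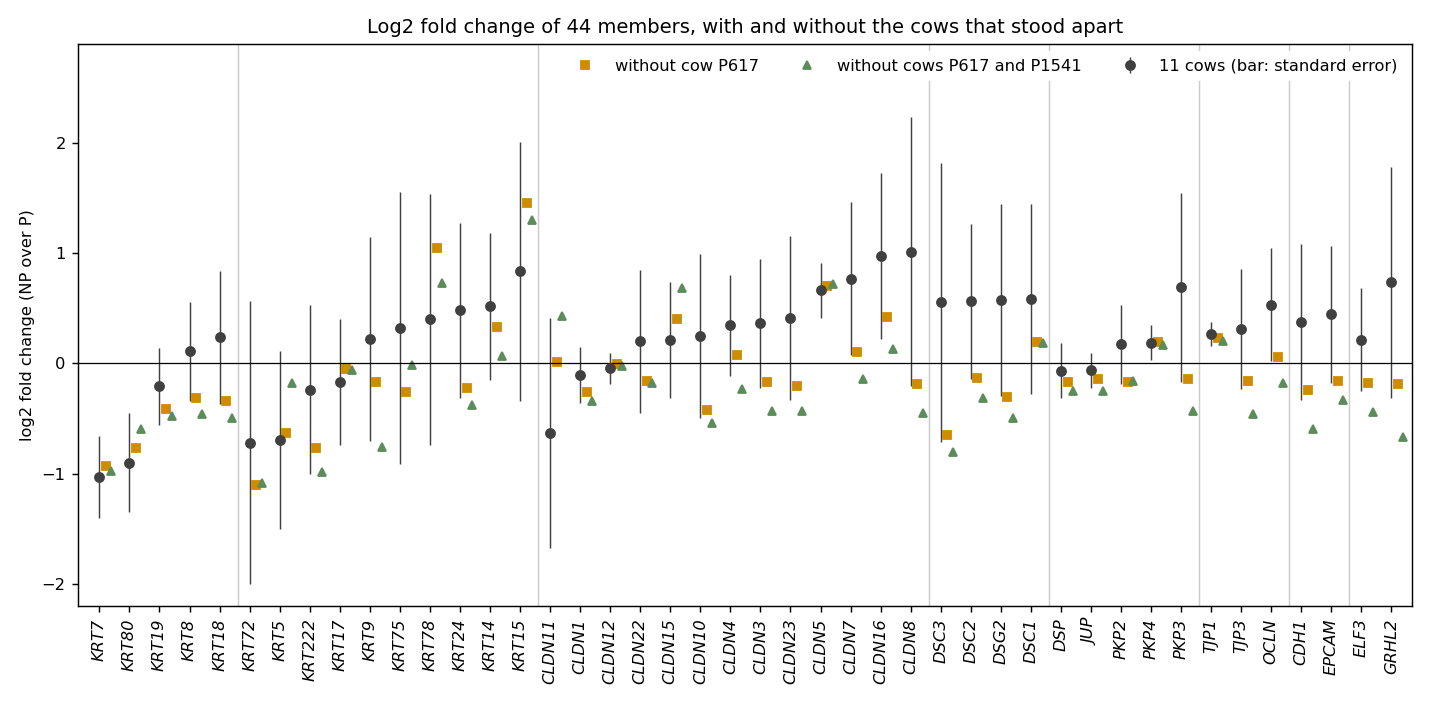
Log2 fold change (NP over P) of 44 of the 45 genes by role, over the 11 cows (circles, with the standard error), without P617 (squares) and without P617 and P1541 (triangles). For most claudins, cadherins, adhesion receptors and regulators the circle lies above 0 and the triangle below. KRT7, CLDN5, CLDN12, PKP4 and TJP1 move little, and KRT80 moves toward 0 but stays below it.

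With P617 set aside, the 45 genes still followed the cow. P1541 was then the lowest cow in 18 of them (40.0%, against 19.9% of the genes tested), and P1631 the highest in 15 (33.3%, against 10.7%). The mean log2 level of the 45 genes was 6.11 in P617, 7.56 in P1541 and 7.79 to 8.54 in the others, with P1631 at the top. It was 7.70 ± 0.842 (SD, n = 6) in P and 7.91 ± 0.101 (SD, n = 5) in NP cows. The SD on the log2 scale was larger in P than in NP cows in 34 of the 45 genes (75.6%, against 72.7% of the genes tested), and in 26 when P617 was set aside (57.8%, against 60.5%), shares close to those of the genes tested. Among the steadiest genes across the 10 cows besides P617 were CLDN12, TJP1, PKP2 and JUP, with SDs on the log2 scale of 0.18, 0.18, 0.20 and 0.21. The most variable were KRT72, KRT75 and KRT15, with 2.32, 2.02 and 2.01.

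**Figure D5:**
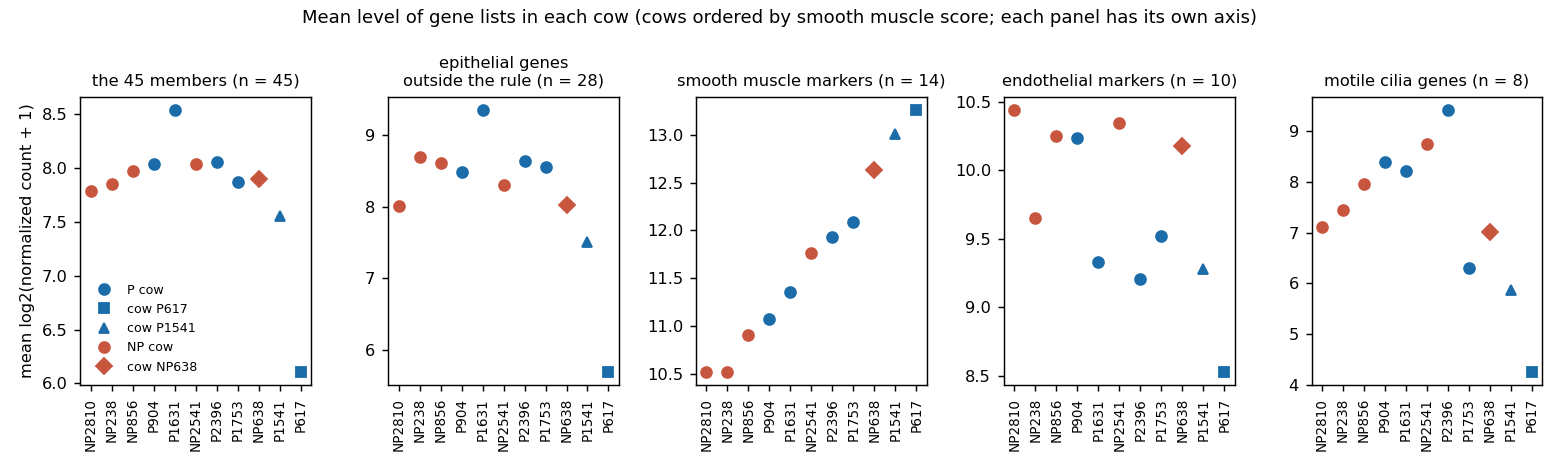
Mean log2(normalized count + 1) of 5 gene lists in each cow, with cows in the order of their smooth muscle level (P blue, NP red, each panel with its own axis). The 45 genes and the 28 other epithelial genes are lowest in P617 and next lowest in P1541, the 2 cows with the most muscle, and the endothelial panel is higher in most NP cows.

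Other genes of the same junctions were read from a list of 46 partners and polarity genes, of which 35 were measured. None had an unadjusted limma p-value under 0.05, against 7.84% of the genes tested. At that threshold DESeq2 gave 3 and edgeR 1, against 9.75% and 7.74% of the genes tested. The log2 fold change was negative in 16 and positive in 19, with a median log2 fold change of 0.028. P617 was the lowest cow in 17 of the 35, against 27.1% of the genes tested. GJB1, a connexin of epithelial gap junctions, was 12.4 in P617 and 392 to 1341 in the others, whereas CDH3, the P-cadherin gene, was 3215 in P617 and 1858 in P1541, with NP638 next and 55.0 to 317 in the remaining 8 cows. VCL, which links cadherin and integrin contacts to actin and is abundant in muscle, was 24749.5 and 22519.9 in those 2 cows against 3402 to 11113. CTNNA1, the alpha-catenin gene, was even, at 6073 ± 481 (SD, n = 6) in P and 6077 ± 656 (SD, n = 5) in NP cows. Of 30 epithelial genes outside the symbol search, 28 were measured and 0 had an unadjusted limma p-value under 0.05 (DESeq2 and edgeR also gave 0), with 24 positive and 4 negative log2 fold changes. P617 was the lowest cow in 23 of the 28. Without P617 and P1541, 28 of 28 log2 fold changes were negative, where 53.7% of the genes tested were. An unadjusted limma p-value under 0.05 was reached by 10 (11.1% of the genes tested), with the smallest adjusted p-value at 0.225. All 10 were higher in P cows, a direction and threshold met by 4.01% of the genes tested. These 2 cows had the lowest mean levels of the 28 genes, so leaving them out raises the P level by construction. Without NP638 as well, 25 were negative (53.6% of the genes tested). Of the 28, 4 then had such a p-value, all higher in P cows, as did 3.81% of the genes tested. Of the motile cilia genes, 8 of 9 were measured (PIFO was at 0 in every cow), and P617 was the lowest cow in all 8.

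With the mean level of the 28 epithelial genes as a covariate, CLDN5, CLDN7, KRT7 and TJP1 had an unadjusted limma p-value under 0.05, where 12.3% of the genes tested did and 4.24% were higher in P cows. KRT7 was the one higher in P cows. The smallest adjusted p-value among the 45 was 0.257, and 0 were under 0.1, where 0.736% of the genes tested were. The median log2 fold change of the 45 was 0.014 in that fit, and it was -0.19 with the smooth muscle level as the covariate, where CLDN5 and KRT7 had an unadjusted limma p-value under 0.05, as did 5.72% of the genes tested.

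The genes below the level filter complete the account. Of 45 keratin entries under a symbol of their own, 15 were reported and 30 lay below a mean of 5, 18 of them without a read in any cow. Of 22 claudins, 13 were reported, and CLDN2, CLDN6, CLDN9, CLDN14, CLDN17, CLDN18, CLDN19 and CLDN24 had means of 0.0915 to 1.29 normalized counts while CLDN25 had no read. Of 4 desmogleins DSG2 was the one reported, whereas the 3 desmocollins, 3 plakophilins and 3 zonula occludens genes all were. The genes nearest to the filter were DSC1 (6.09) and KRT222 (7.06) above it and KRT4 (3.67) and DSG3 (3.12) below it.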

How the data were processed

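RNA-Seq was analysed in 1 endometrial biopsy from each of 6 P and 5 NP cows. According to the methods and the submitters' processing notes, base calls came from CASAVA 1.8.2, and paired-end reads were filtered, mapped with Bowtie2 2.1.0 to the masked UMD3.1 assembly and counted per gene with HTSeq 0.5.4p2. The authors deposited a signal per gene and cow, the count divided by a size factor from DESeq2 1.12.1. Genes carry Ensembl identifiers. The annotation release and the use of strand are not given in the sources used here, so counts of near-identical or overlapping genes are uncertain. In each cow 100% of the values were multiples of a constant step (tolerance 0.01 of a read), and dividing by it recovered the reads.

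All 15081 genes whose mean reached 5 entered limma 3.58.1 (R 4.3.3; eBayes with a trend) on log2(value + 1), with the Benjamini-Hochberg adjustment at 0.1. Fold changes on that scale understate the change of low genes. edgeR 4.0.16, DESeq2 1.42.0, limma-voom, other factors, pseudocounts, filters, covariates and exclusions of cows were alternatives. The p-values set the group difference against the spread between cows. With 1 biopsy per cow, that spread includes differences between biopsies. Named are the 3 genes of the highest mean in each role, the 5 largest fold changes, genes at an unadjusted p-value under 0.05 or without overlap, and EPCAM, CDH1, ELF3 and GRHL2, 25 in all; other genes are given by range. Of the 45 genes 1 is counted but not reported here. KRT17, KRT78 and the other genes outside this rule were named after their values were seen. The genes and lists were chosen with earlier results of these data known. No sequence or coordinate is printed, since the gene table at hand is of another assembly and holds no sequence. The planned protein and promoter searches were not run.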

Additional observations from a re-analysis of the deposited data

Results flagged for a closer look

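Of 50 groups of cows (25 genes in 2 groups), 11 had a cow far from the others. Such a cow was separated from its neighbor, on the log2 scale, by most of the range of its group. A rate of about 1 in 20 groups was set as that by chance, but the 50 groups come from the same 11 cows and are not independent. In 9 of the 11 that cow was P617, as the lowest P cow. Its normalized counts were 268.9 for EPCAM, 223.7 for CLDN7, 13.56 for CLDN8, 27.11 for DSC2, 0.0 for DSC3, 51.96 for DSG2, 4.519 for KRT24, 202.2 for KRT18 and 405.5 for KRT8. These 9 are not independent of each other, since they come from 1 biopsy. Among NP cows, NP2810 was the lowest for CLDN1 (1656) and the highest for KRT19 (1891). Cow P617 is also the cow whose group differs between the sample records and a supplementary table.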

How the results depend on the processing

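No paired analysis was possible because the cow numbers are not shared between the groups. In every other setting run, 0 of the genes of the symbol search that were fitted lay below the adjusted threshold of 0.1. These were the 45, except 40 with a minimum mean of 20 and 68 with no filter on low values. The count at an unadjusted p-value under 0.05, 3 over the 11 cows, was 1 to 4 with 1 cow at a time left out, 1 without NP856 (KRT7), and 8 without P617 and P1541. The count of genes without overlap, 0 over the 11 cows, was 1 with upper-quartile normalization (TJP1), 1 without P617 and P1541 and 1 without P617, P1541 and NP638 (DSG2 in both), and 0 to 1 when each cow was left out. TJP1 did not overlap without P1753 or without NP2810, KRT7 without P2396 and CLDN5 without NP238. Of the genes tested 1.05% did not overlap with upper-quartile normalization, 3.66% and 5.03% without those 2 and 3 cows, and 1.45%, 2.21%, 1.52% and 1.53% without P1753, NP2810, P2396 and NP238. The partner genes at an unadjusted p-value under 0.05, 0 over the 11 cows, numbered 3 with DESeq2, 1 with edgeR, 3 with the epithelial level as a covariate, 6 without P617 and P1541, 5 without NP638 as well, and 0 to 3 when each cow was left out (3 without P617, 1 without P1541 and 1 without P904). The other epithelial genes, 0 over the 11 cows, numbered 1 with the smooth muscle covariate, 10 without P617 and P1541, 4 without NP638 as well, and 0 to 1 when each cow was left out (1 without P617). Of the genes tested, 7.84% reached an unadjusted limma p-value under 0.05 over the 11 cows. This share was 8.95% without P617, 11.1% without P617 and P1541, and 10.2% without NP638 as well. It was 12.3% with the epithelial covariate and 5.72% with the smooth muscle covariate. DESeq2 and edgeR over the 11 cows gave 9.75% and 7.74%. With any other 1 cow left out the share was not computed.

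The median log2 fold change of the 45 genes was 0.27 over the 11 cows. It turned to -0.015 with DESeq2, -0.015 with edgeR, -0.19 with the smooth muscle covariate, -0.31 without P617 and P1541 and -0.25 without NP638 as well, and was -0.17 to 0.47 when each cow was left out, negative without P617 alone. No scaling moved the median of all genes by over 0.1. Of the 25 named genes 7 kept their direction in each of 22 settings and 18 turned in at least 1. The 7 were CLDN5, CLDN16, KRT7, KRT15, KRT80, PKP4 and TJP1. With DESeq2 the turned log2 fold changes were -0.088 for CDH1, -0.27 for DSC3, -0.086 for DSG2, -0.81 for KRT9, -0.0902 for KRT18, -0.14 for KRT8 and -0.089 for ELF3. With edgeR they were -0.088 for CDH1, -0.28 for DSC3, -0.086 for DSG2, -0.81 for KRT9, -0.0902 for KRT18, -0.14 for KRT8 and -0.089 for ELF3. With the epithelial level as a covariate they were -0.0072 for CDH1, -0.082 for DSC3, -0.022 for KRT9, -0.058 for KRT18, -0.12 for KRT8 and -0.025 for ELF3. With the smooth muscle covariate they were -0.42 for CDH1, -0.22 for EPCAM, -0.048 for CLDN7, -0.19 for CLDN8, -0.10 for DSC2, -0.53 for DSC3, -0.28 for DSG2, -0.61 for KRT24, -0.18 for KRT9, -0.39 for KRT18, -0.40 for KRT8, -0.10 for OCLN, -0.24 for ELF3 and -0.41 for GRHL2. Without P617 and P1541 they were -0.60 for CDH1, -0.34 for EPCAM, -0.14 for CLDN7, -0.45 for CLDN8, -0.31 for DSC2, -0.81 for DSC3, -0.49 for DSG2, -0.38 for KRT24, -0.76 for KRT9, -0.49 for KRT18, -0.46 for KRT8, -0.18 for OCLN, -0.44 for ELF3 and -0.67 for GRHL2. Without NP638 as well they were -0.49 for CDH1, -0.25 for EPCAM, -0.059 for CLDN7, -0.39 for CLDN8, -0.30 for DSC2, -0.75 for DSC3, -0.51 for DSG2, -0.11 for KRT24, -1.09 for KRT9, -0.42 for KRT18, -0.41 for KRT8, -0.076 for OCLN, -0.45 for ELF3 and -0.59 for GRHL2. Leaving out 1 cow at a time, the ranges of those that turned were -0.24 to 0.67 for CDH1, -0.16 to 0.66 for EPCAM, -0.26 to 0.11 for CLDN1, -0.19 to 1.41 for CLDN8, -0.13 to 0.78 for DSC2, -0.65 to 0.93 for DSC3, -0.31 to 0.80 for DSG2, -0.17 to 0.12 for DSP, -0.14 to 0.0095 for JUP, -0.22 to 0.76 for KRT24, -0.18 to 0.82 for KRT9, -0.34 to 0.47 for KRT18, -0.44 to 0.019 for KRT19, -0.32 to 0.30 for KRT8, -0.18 to 0.45 for ELF3 and -0.19 to 1.07 for GRHL2. P617 turned them in every case but CLDN1 (NP2810), DSP (P1631, P2396 or NP2810), JUP and KRT19 (P1631), and KRT9, which also turned without P1541, P1753 or NP638. TMM and upper-quartile factors, limma-voom and the other pseudocounts turned none of the 25. The cause of these changes was not tested. The epithelial covariate and the exclusion of NP638 were chosen after seeing the data. At 9290949 to 13569085 reads on genes per cow, depth limits the precision of genes at a few normalized counts, such as KRT4 and DSG3.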

Other observations

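Stromal and leukocyte markers were read beside the junction genes. The log2 fold change was positive in 10 of 11 stromal markers measured and 3 were higher in NP cows at an unadjusted limma p-value under 0.05. It was positive in 11 of 11 leukocyte markers tested, while MS4A1 lay below the level filter. Of the 11, 5 were higher in NP cows at an unadjusted limma p-value under 0.05, a direction and threshold met by 5.49% of the genes tested. P617 was the lowest cow in 2 of 11 stromal, 3 of 11 leukocyte and 8 of 10 endothelial markers, in 23 of 28 epithelial genes and in 27.1% of the genes tested. KRT15 and KRT78 were high in NP638 and P617, and both biopsies were among the 3 with the highest smooth muscle level. The third, P1541, had 7.74 and 1.94 normalized counts of these genes. P1631 had 161 of KRT15 and 16.0 of KRT78, with a smooth muscle level of 11.35. The part of muscle in these levels was not tested.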
